A study of Mus musculus with 4 samples.

Results

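Long intergenic RNAs, measured on this array by probes that are named only by a genomic interval and a strand, are the subject here. A name such as chr7:16584852-16657252_F gives the chromosome, the start and end on the mm9 build of the mouse genome, and F or R for the forward or the reverse strand. Such a named interval strand is called an interval transcript below. The members are all non-control probes whose name has this form on an autosome, which were 15604 of the 55681 non-control probes on the array. They fell into 4429 interval transcripts out of 34844 names in all, of which 2231 were forward and 2198 reverse. These lay in 3387 intervals, 1042 with probes to both strands and 2345 with probes to 1 strand. The 577 probes of the same kind on the X chromosome, in 178 interval transcripts, were left out by the rule.

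Long intergenic RNAs are transcripts that lie between protein-coding genes and are not translated into a known protein. Many are spliced and polyadenylated like messenger RNAs, and some act in the nucleus on chromatin or on nuclear bodies, whereas others are hosts of small RNAs or the by-product of transcription from a nearby promoter or enhancer. They tend to be made at lower levels and in fewer tissues than messenger RNAs, and in the salivary glands few of them have a known role. MyD88 is the adaptor protein that carries the signal of most Toll-like receptors and of the interleukin-1 receptors into the cell.

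The study compared salivary glands (SGs) of MyD88-deficient and wild type mice. The labels give 2 arrays of Myd88-null glands (Myd88-KO 1 and 2) and 2 of wild type glands (Wildtype 1 and 2), all from female C57/BL6 mice aged 10 weeks, with the submandibular and sublingual glands named as the source and no agent given to either genotype. From 100 ng of RNA each sample was amplified, labelled with Cy3 and hybridised to 1 array, and the 4 arrays lay on 1 slide. The null allele removes MyD88 from every cell of the mouse, so the glands differ from wild type in epithelium and in resident blood cells alike. The labels do not say whether an array holds RNA of 1 mouse or of several, and p-values here measure only the spread between these arrays. For its microarrays the paper gives a larger number per genotype than these arrays and names the submandibular gland alone. Neither difference from the labels could be resolved. The Myd88 probe itself read 1.51 and 1.41 on the Myd88-KO arrays and 1.15 and 1.07 on the Wildtype arrays, and since its place relative to the deleted part is not known it does not check the labels.

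Levels below are log2 of the processed signal minus the 75th percentile of the same array, so that 0 is that percentile. The percentile was 256, 237, 321 and 269 signal units on Myd88-KO 1, Myd88-KO 2, Wildtype 1 and Wildtype 2, and no interval probe was saturated. A probe counts as detected where the scanner software called its spot well above background, and a difference is Myd88-KO minus Wildtype. Probes of different sequence differ in how well they hybridise, so a level is a signal and does not rank the abundance of transcripts.

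The probes are 60 bases long, and the sequences that carry the results are given here 5′ to 3′ as on the array, in the sense of the strand they measure. The first set shows the 4 increases named first below.
chr10:87541696-87547421_R: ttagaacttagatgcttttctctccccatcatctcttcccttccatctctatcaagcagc
chr16:29804864-29815614_F: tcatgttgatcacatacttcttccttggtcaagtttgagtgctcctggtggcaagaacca
chr10:98718526-98719169_R: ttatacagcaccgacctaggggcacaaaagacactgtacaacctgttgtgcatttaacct
chr6:4841700-4847400_F: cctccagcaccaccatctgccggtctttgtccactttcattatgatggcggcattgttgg
The second set shows 8 decreases on 7 chromosomes. The capitals mark the string CCTCCACC, which the probes share and which is described with the decreases.
chr17:7025616-7033491_F: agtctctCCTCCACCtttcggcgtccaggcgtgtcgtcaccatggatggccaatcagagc
chr8:41475940-41476460_F: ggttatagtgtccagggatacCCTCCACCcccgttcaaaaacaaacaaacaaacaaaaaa
chr5:107503800-107515575_R: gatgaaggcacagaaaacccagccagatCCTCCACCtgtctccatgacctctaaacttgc
chr5:113768412-113769110_R: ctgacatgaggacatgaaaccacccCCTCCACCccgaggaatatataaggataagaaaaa
chr6:149307300-149322900_R: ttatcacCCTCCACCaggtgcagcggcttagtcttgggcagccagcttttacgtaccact
chr7:77481448-77495548_F: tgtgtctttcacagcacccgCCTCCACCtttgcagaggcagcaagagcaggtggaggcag
chr15:79764481-79809909_F: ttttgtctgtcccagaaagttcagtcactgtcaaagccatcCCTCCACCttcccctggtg
chr9:96664617-96683617_R: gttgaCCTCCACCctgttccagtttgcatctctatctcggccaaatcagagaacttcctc
The largest decrease among transcripts detected on all 4 arrays is shown for contrast, since it does not hold that string.
chr15:60989423-60997290_F: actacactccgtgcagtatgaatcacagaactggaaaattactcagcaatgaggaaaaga
The last set is a pair that reads both strands of the same stretch of chromosome 12, and the capitals mark the 49 shared bases, which are the reverse complement of each other.
chr12:119825125-119850750_F: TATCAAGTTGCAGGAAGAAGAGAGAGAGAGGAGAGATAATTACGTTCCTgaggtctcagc
chr12:119825125-119850750_R: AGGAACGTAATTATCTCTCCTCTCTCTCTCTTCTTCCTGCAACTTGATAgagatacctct

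The interval transcripts had 1 to 10 probes each, with a median of 3. There were 660 with 1 probe, 1726 with 3, 955 with 5 and 143 with 10. The intervals were between 62 and 7128487 bases long, with a median of 10745 and quartiles of 1791 and 25940, and 172 interval transcripts spanned over 100000 bases. All 15486 probes with a position in the files lay inside their own interval and on its strand, and 118 had no position. An annotated gene's probe lay on the same strand inside 618 interval transcripts (14.0%), 425 held one on the opposite strand, and 3465 held none. The base content of the probes differed from that of the other 39430 probes, with a median GC content of 45.0% against 41.7%. The poly(A) signal AATAAA, searched as these letters on the probe's own strand, stood in 3.92% of interval probes (611) and in 12.6% of other probes. Among interval probes it stood in 4.31% of those detected on all 4 arrays and in 3.97% of those detected on none, whereas among other probes the shares were 14.5% and 10.2%.

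Most interval transcripts gave a signal in the glands, but the count depended on the array. Of the 15604 interval probes, 33.7% were detected on Myd88-KO 1, 57.9% on Myd88-KO 2, 64.0% on Wildtype 1 and 36.7% on Wildtype 2. The other probes were detected more often and showed the same order of arrays, at 59.9%, 72.8%, 78.4% and 62.8%. Myd88-KO 2 and Wildtype 1 were thus the arrays with more detected probes, and the order did not follow genotype. At least 1 probe was detected for 2691, 3763, 3936 and 2782 interval transcripts on the 4 arrays in the order above. A total of 2537 (57.3%) had a detected probe on all 4 arrays, 381 on no array, and 837 (18.9%) only on Myd88-KO 2 and Wildtype 1. Detection split by genotype was rare, since 6 interval transcripts were detected on both Myd88-KO arrays and neither Wildtype array (0.135%), and 30 the other way round (0.677%). Among other names the shares were 0.0794% and 1.03%.

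**Figure D1:**
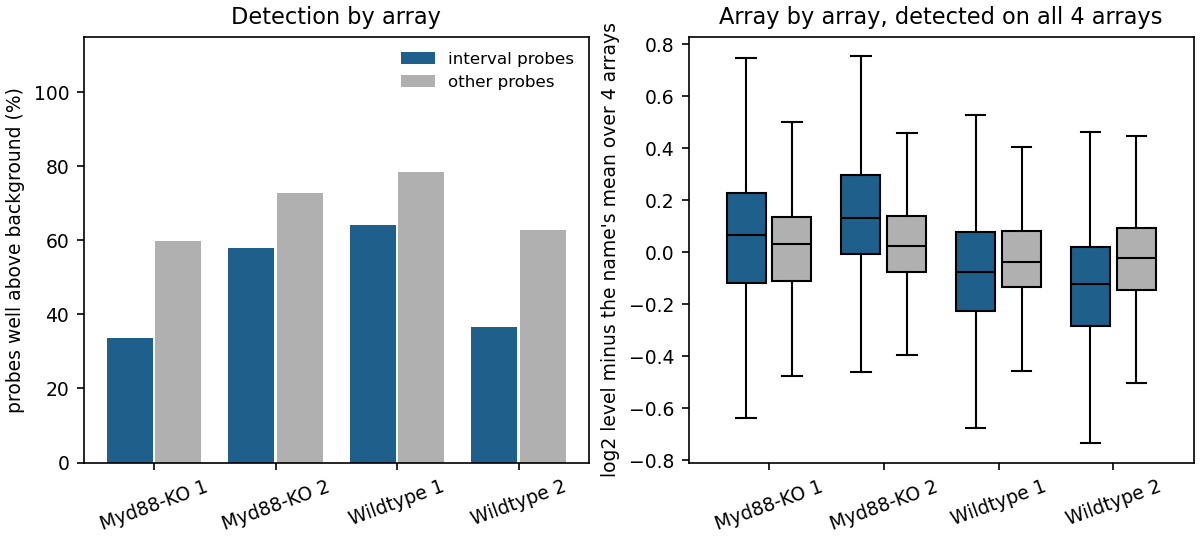
Left, the share of interval probes (blue) and of other probes (grey) that were well above background, in percent, on each array. Right, for names detected on all 4 arrays, the log2 level on an array minus the name's own mean over the 4 arrays; boxes give the median and quartiles, and whiskers reach the last value within 1.5 times the box. Detection was highest on Wildtype 1 (64.0% of interval probes), and the medians of interval transcripts were 0.07 and 0.13 on the Myd88-KO arrays and -0.08 and -0.12 on the Wildtype arrays.

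Detection also rose with the number of probes on an interval strand. The same probe was detected on all 4 arrays for 2496 interval transcripts, from 35.6% of those with 1 probe to 82.0% of those with 6 or more. Every probe of the transcript was detected on all 4 arrays for only 639. Probes of 1 interval strand differed widely in signal, with a median range of 1.69 on the log2 scale over the 1508 interval transcripts with several tested probes. The brightest probe of each name was carried into the comparison of genotypes, and 2848 interval transcripts had one that was detected on both arrays of a genotype. Their mean levels ran from -4.88 to 8.91 with a median of -1.62, and 747 (26.2%) lay above 0 against 52.9% of the other names.

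Both strands of an interval often gave a signal. Of the 1042 intervals with probes to both strands, 443 had both detected on all 4 arrays, 215 the forward strand alone, 236 the reverse strand alone and 148 neither. In the 451 intervals with 1 strand detected on all arrays, the other strand was detected on no array in 46 and on some of the arrays in the rest. A closer reading comes from probes that lie over the same bases. In 650 intervals, 1556 pairs of a forward and a reverse probe shared at least 30 bases. Both probes were detected on all 4 arrays in 149 of these pairs, the forward probe alone in 316, the reverse probe alone in 330 and neither in 761. In 165 pairs 1 strand was detected on all arrays and the other on none.

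The pair on chromosome 12 printed above is an example in which both strands of the same 49 bases gave a signal. The forward probe (chr12:119825125-119850750_F) read 5.95 and 5.70 on the Myd88-KO arrays and 5.69 and 5.60 on the Wildtype arrays, and the reverse probe read 6.72 and 6.52 against 6.14 and 6.15. On both strands both Myd88-KO values lay above both Wildtype values, with a difference of 0.47 on the reverse strand (SE 0.12, adjusted p = 0.233 in limma) and of 0.18 on the forward strand (SE 0.13, adjusted p = 0.558). Over the 443 intervals with both strands detected, 260 had both strands higher in Myd88-KO, 25 had both lower and 158 had opposite signs. The differences of the 2 strands were not correlated across intervals (Pearson's r = -0.02, n = 443 intervals, which share the same 4 arrays).

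**Figure D2:**
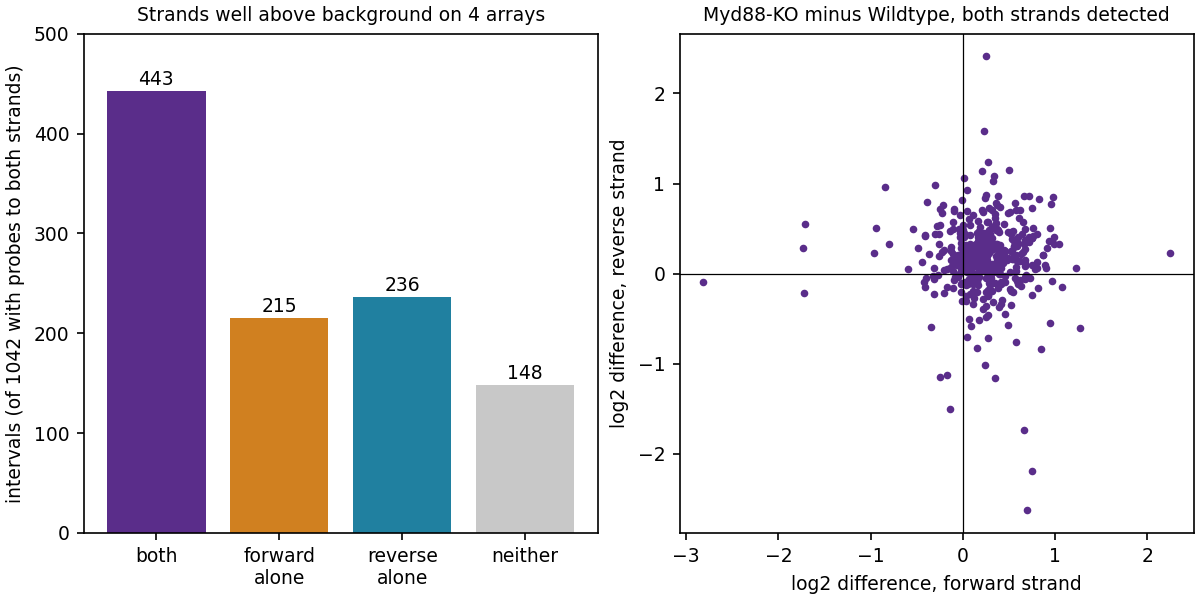
Left, the number of intervals, of 1042 with probes to both strands, in which both strands, 1 strand or neither were well above background on all 4 arrays. Right, the log2 difference Myd88-KO minus Wildtype of the reverse strand against that of the forward strand for the 443 intervals with both detected; 260 points lie where both differences are above 0, and the points show no trend (Pearson's r = -0.02).

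Interval transcripts were on balance higher in the Myd88-KO glands, by a small amount. Of the 2848 tested, 2035 (71.5%) had a higher mean in Myd88-KO and 813 a lower one, with a median difference of 0.18 on the log2 scale, whereas 57.9% of the other names were higher, with a median of 0.05. None passed an adjusted p of 0.05 in limma, as was the case for all 22317 names tested (0% called), and the smallest adjusted p was 0.194. At an unadjusted p under 0.05, 486 interval transcripts (17.1%) were higher in Myd88-KO and 95 (3.34%) lower, against a background over all names of 9.81% higher and 6.83% lower. Scaling each array on its median instead gave 57 higher and 58 lower, and cyclic loess gave 402 and 150, although the median of all names moved by less than 0.1 under either. Other settings made 6 (normexp background correction), 27 (median scaling) and 71 (trended and robust moderation) adjusted calls among the interval transcripts.

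The arrays of the genotypes did not overlap, with both Myd88-KO values above both Wildtype values, for 1167 interval transcripts (41.0%), where the background was 33.2%. The reverse held for 267 (9.38%), where the background was 18.7%. Differences of more than 2-fold were found for 75 interval transcripts (2.63%) in the upward and 58 (2.04%) in the downward direction, against 1.37% and 3.42% of all names. With 2 arrays of each genotype, an exact permutation test of a single value cannot go below a two-sided p of 0.333. The median difference was above 0 for each of the 4 pairings of a Myd88-KO with a Wildtype array, between 0.10 (Myd88-KO 1 minus Wildtype 1) and 0.26 (Myd88-KO 2 minus Wildtype 2), and the other names lay between 0.04 and 0.06.

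**Figure D3:**
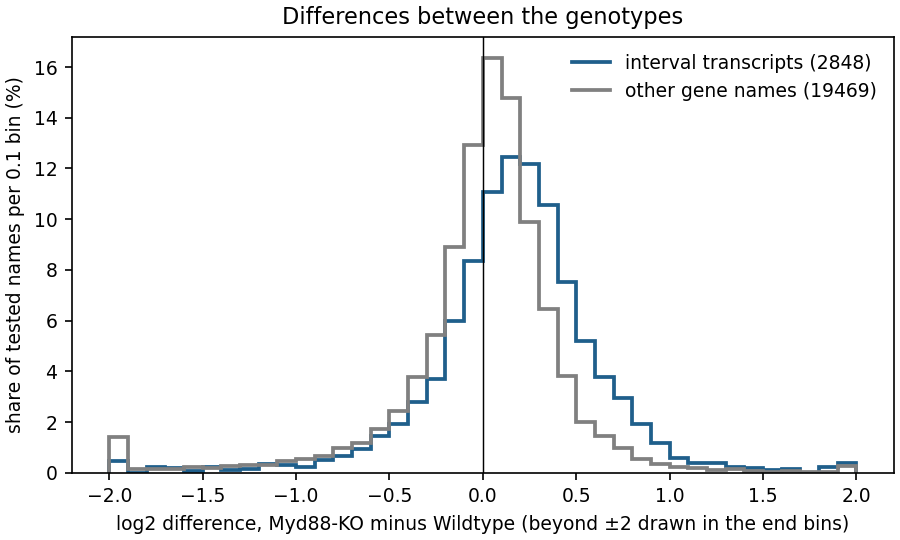
Distribution of the log2 difference Myd88-KO minus Wildtype, as a share of names, for the 2848 interval transcripts and the 19469 other names tested. The interval transcripts are shifted to the right, with a median of 0.18 against 0.05.

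The shift was seen at all signal levels, on all chromosomes and on both strands. In 5 bins of mean level the median difference of interval transcripts lay between 0.11 and 0.22, and that of other names between -0.05 and 0.07. At a level above 0, 25.7% of the 747 interval transcripts were higher and 3.35% lower at an unadjusted p under 0.05, against 9.25% and 4.81% of the 10297 other names in that bin. On each of the 19 autosomes more interval transcripts were higher than lower at this threshold, with medians from 0.09 to 0.26. Forward transcripts had 18.5% higher and 3.16% lower, and reverse transcripts 15.6% and 3.51%. It was also seen where no annotated gene's probe lay inside the interval (2165 tested, 16.4% higher and 3.19% lower), where one lay on the same strand (444 tested, 16.9% and 3.38%) and where one lay on the opposite strand alone (239 tested, 23.8% and 4.60%).

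**Figure D4:**
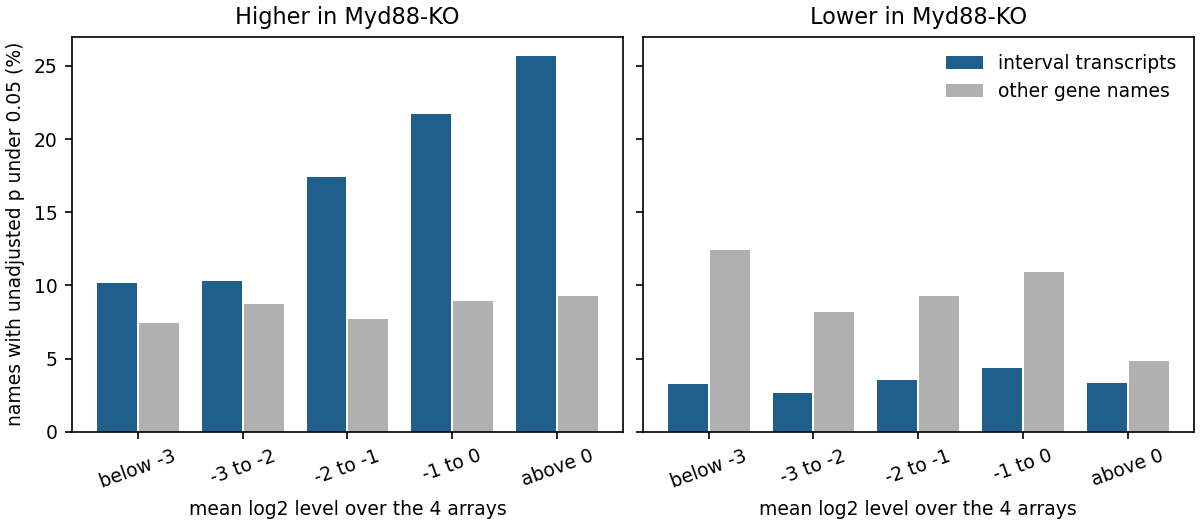
Shares of names higher and lower in Myd88-KO at an unadjusted p under 0.05 by bin of mean log2 level, for interval transcripts and other names. In the bin above 0, 25.7% of interval transcripts were higher and 3.35% lower, against 9.25% and 4.81% of other names.

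The size of the difference moved with the base content of the probe, and it did so among other probes too. Among probes detected on all 4 arrays, the median difference of interval probes was 0.06 at a GC content of 35% to 40% and 0.24 at 60% or more, while that of other probes went from 0.03 to 0.18. For the share of C alone, interval probes went from 0.04 under 15% to 0.25 at 30% or more, and other probes from 0.04 to 0.13. Within each of these bins the median of interval probes was the higher one. The part of base content in the shift was not tested.

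Markers of other cell types also differed between the genotypes. Of the gland markers, 10 of 12 were on the array and all were detected on all 4 arrays. Their summed level was 12.8 and 12.7 on the Myd88-KO arrays and 12.3 and 12.4 on the Wildtype arrays, without overlap, and 7 of 10 had a higher mean in Myd88-KO (median difference 0.23). Smgc, a secreted gland protein, differed by 1.57. The B cell list (6 of 6 on the array) summed to 1.10 and 0.96 on the Myd88-KO arrays and to 3.90 and 3.01 on the Wildtype arrays. The T cell list gave 2.05 and 2.37 against 3.93 and 3.28, and the skeletal muscle list 1.21 and 1.18 against 4.25 and 6.78. All 5 tested B cell markers and all 6 of both the T cell and the muscle list were lower in Myd88-KO. The adipocyte list (5 of 6 on the array, all lower) summed to 7.16 and 7.79 against 8.25 and 8.28. The summed level of the macrophage list, with 4.93 and 4.71 against 5.03 and 4.62, overlapped between the genotypes. The neutrophil list summed to 1.96 and 1.86 against 2.15 and 1.81, a sum carried by Elane (0.20), while the other 4 of its 5 tested markers were lower in Myd88-KO (median of the 5, -1.44). No listed marker on the array was below background on all 4 arrays. The part of these cell types in the differences of the interval transcripts was not tested. The paper describes removal of lymph nodes and of connective and fatty tissue from the glands. By flow cytometry it reports more B cells and plasma cells in submandibular glands of male Myd88-deficient mice. That direction is opposite to that of the B cell list here, which measures RNA in glands labelled as female. In whole glands fewer cells of a type, less RNA per cell and uneven amounts of tissue left at dissection cannot be told apart.

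The 8 interval transcripts with the strongest signal had differences between 0.15 and 0.54, and the probes of 2 of them lay near probes of well known noncoding RNAs. No genome annotation was used, so whether these intervals are parts of those RNAs or separate transcripts is not known here. The reverse transcript chr19:5801802-5802597_R, whose probe lies 6417 bases from the Malat1 probe on the same strand, read 8.35 and 8.66 on the Myd88-KO arrays and 8.26 and 8.46 on the Wildtype arrays. Malat1 is a long nuclear RNA that most cell types make in large amounts. The values of the genotypes overlapped (difference 0.15, SE 0.17, adjusted p = 0.703), and the sign was lost without Myd88-KO 2 (-0.01).

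The forward transcript chr17:39982023-39983277_F lies 1840 bases from the probe for Rn18s, the 18S ribosomal RNA, and read 8.34 and 8.32 against 7.95 and 8.08. Its difference of 0.31 (SE 0.11, adjusted p = 0.292) stood beside one of 0.33 for Rn18s. The strongest signal of all was that of chr7:16584852-16657252_F, at 9.25 and 9.11 against 8.52 and 8.74. Both Myd88-KO arrays were above both Wildtype arrays there (difference 0.54, SE 0.14, adjusted p = 0.231), and 5 of its 6 further tested probes had the same sign. Among the other 5 in this group, chr9:65376063-65390480_F, chr4:119967625-119978325_R, chr14:78924115-78938125_F and both strands of chr12:73838608-73862621, the differences were between 0.30 and 0.54, with adjusted p from 0.234 to 0.480.

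Larger increases were found at weaker signals, and 4 of the 8 named rested on 1 tested probe. The reverse transcript chr10:87541696-87547421_R read 2.84 and 3.36 on the Myd88-KO arrays and 1.00 and 0.38 on the Wildtype arrays. This difference of 2.41 (SE 0.31, adjusted p = 0.194, and between 0.001 and 0.539 under the other settings) was the largest increase among interval transcripts detected on all 4 arrays whose genotypes did not overlap, and the 1 further tested probe of that interval strand differed by 0.27. The forward transcript chr16:29804864-29815614_F read 1.38 and 1.01 against -1.13 and -0.98, so that the genotypes were wide apart and each array pair close together (difference 2.25, SE 0.17, adjusted p = 0.194).

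The reverse transcript chr10:98718526-98719169_R read 2.98 and 2.80 against 1.52 and 1.45 (difference 1.40, SE 0.12, adjusted p = 0.194). Its probe lies 11299 bases from that of Dusp6, a phosphatase that inactivates the ERK kinases, on the opposite strand, and the Dusp6 probe differed by 0.43. The forward transcript chr6:4841700-4847400_F read 1.85 and 1.62 against 0.29 and 0.64 (difference 1.27, SE 0.18, adjusted p = 0.194), while its 1 further tested probe differed by 0.02. These 4 were called at an adjusted p under 0.05 with trended and robust moderation, as was chr2:117781720-117937595_F (1.06 and 0.69 against -0.23 and -0.71). The remaining named increases were chr3:96289850-96301078_F, whose 2 further probes differed by -0.07 and -0.02, chr5:67865049-67868521_F and chr16:64786250-64814249_R, with differences of 1.39, 1.27 and 1.27. The 1 further tested probe of chr16:64786250-64814249_R differed by 0.21.

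The 8 largest decreases had an array order in common, with Myd88-KO 1 above Myd88-KO 2 in all 8. The forward transcript chr15:60989423-60997290_F read -1.56 and -2.84 on the Myd88-KO arrays and 1.01 and 0.96 on the Wildtype arrays (difference -3.19, SE 0.48, adjusted p = 0.194). It has 1 probe. The forward transcript chr17:7025616-7033491_F read 2.89 and 0.62 against 4.87 and 4.57 (difference -2.97, SE 0.84, adjusted p = 0.253), and the difference was -4.10 without Myd88-KO 1 and -1.83 without Myd88-KO 2. The reverse transcript chr5:113768412-113769110_R had the strongest signal among them, at 6.03 and 4.24 against 7.77 and 7.59 (difference -2.54, SE 0.66, adjusted p = 0.237).

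In these transcripts the Wildtype arrays lay closer together than the Myd88-KO arrays, which were more than 1 log2 unit apart. The gap between the Wildtype arrays reached 0.63 for chr6:149307300-149322900_R and 0.56 for chr5:107503800-107515575_R. The same order was seen for chr8:41475940-41476460_F (3.58 and 1.57 against 5.41 and 5.17), chr5:107503800-107515575_R (0.57 and -1.04 against 2.67 and 2.11) and chr6:149307300-149322900_R (-1.62 and -2.71 against 0.36 and -0.27). The 2 further tested probes of chr6:149307300-149322900_R differed by -0.28 and 0.17. For chr17:87483814-87493039_F the named probe read 1.21 and -0.64 against 3.23 and 2.98, while the 3 further tested probes of the same interval strand differed by 0.13 to 0.54 in the other direction. The last of the 8, chr12:110653148-110653701_F, differed by -2.26 and lies 45005 bases from the probe of the imprinted gene Dlk1, which differed by -0.65. Median scaling gave all 8 an adjusted p under 0.05 in limma. It did so for chr17:7025616-7033491_F (4.5e-06) although the Myd88-KO arrays read 2.89 and 0.62 in the main processing. Under that scaling fewer interval transcripts passed an unadjusted p of 0.05 (2.00% higher and 2.04% lower) than in the main fit (17.1% and 3.34%). The reason was not tested, and these calls are not taken as support for the 8.

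Several of these probes share a short string that was found only after their values had been seen, as the 8-base string held by more of the 100 interval probes with the largest decreases than any other. It is CCTCCACC, printed in capitals above and searched on the probe's own strand. It stood in 20 of the 15604 interval probes (0.128%) and in 33 of the 40077 non-control probes that are not members (0.0823%), which here include the interval probes of the X chromosome. Of the 17 interval probes that hold it and were detected on all 4 arrays, 13 were lower in Myd88-KO, with differences from -0.65 to -2.97, and 4 were higher, with differences from 0.17 to 0.25. All 13 were among the 100 largest decreases, none overlapped between the genotypes, and they lay on 9 chromosomes with mean levels from -2.72 to 6.41. The median difference was -1.73 with the string and 0.16 without it. Of the 47 interval probes that were more than 2-fold lower, 12 held it, and so did 5 of the 8 named decreases. These counts come from the values by which the string was chosen, so they do not test it.

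Among the 13 lower probes, Myd88-KO 1 was above Myd88-KO 2 in each, by 0.24 to 2.27, whereas it was above in 1967 of all 4827 interval probes detected on 4 arrays. In 7 of the 13 transcripts, 14 further probes of the same interval strand were tested, and they differed by -0.44 to 0.79, with 8 of them below 0. The reverse complement, GGTGGAGG, stood in 21 interval probes, of which 6 were detected on all 4 arrays, with a median difference of 0.21. Of these 6, 4 were higher and 2 lower, 1 of them more than 2-fold. That 1 is the probe of chr7:77481448-77495548_F (-2.06), which holds both strings. Other probes that hold the string and were detected on all arrays (26) had a median of -0.06, and 2 of them were more than 2-fold lower. The lower of these 2 measures Alas1, the first enzyme of haem synthesis, and read 2.99 and 1.32 against 4.89 and 4.54. The Alas1 probe without the string read 4.70 and 4.68 against 4.86 and 4.82.

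The same array order was seen for proline-rich protein genes, which encode major proteins of saliva. These genes were picked by hand outside the naming rules, so their order tests nothing. How many other lowered names share it was not counted. The 8 probes of Prb1, Prh1, Prp2 and Prpmp5 were all lower in Myd88-KO, with differences from -2.03 to -3.86 and Myd88-KO 1 above Myd88-KO 2 by 1.51 to 2.63, and none of them holds the string. For example, a Prp2 probe read 5.78 and 3.82 against 7.26 and 6.99. Whether RNA of another gene reached the string-holding probes was not tested. Without the 14 tested interval transcripts whose probe holds the string, 486 were higher and 84 lower at an unadjusted p under 0.05. None of the 14 was among the 486. Among the 100 largest increases no 8-base string stood in more than 5.

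**Figure D5:**
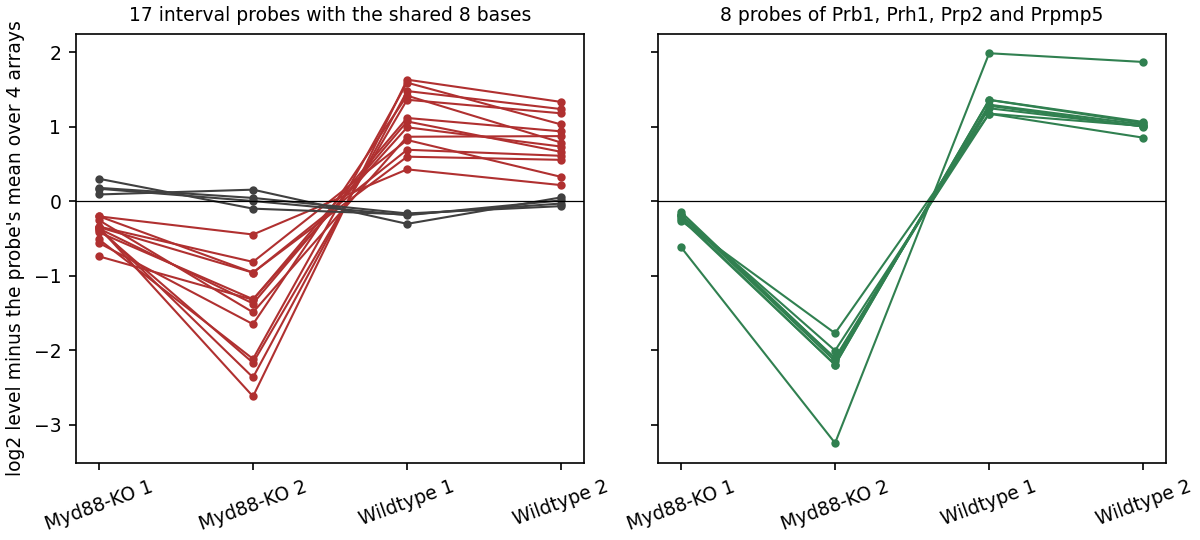
Log2 level on each array minus the probe's mean over the 4 arrays, with a line for each probe. Left, the 17 interval probes that hold the shared string and were detected on all 4 arrays (red, the 13 lower in Myd88-KO; dark grey, the 4 higher); right, the 8 probes of 4 proline-rich protein genes. In the 13 red lines and in all 8 green lines both Wildtype arrays lie highest and Myd88-KO 2 lowest.

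A few interval transcripts were detected in 1 genotype only, at weak signals. By the tested probe, 13 were detected on both Myd88-KO arrays and neither Wildtype array (0.456% of those tested), and 45 the other way round (1.58%), against 0.139% and 1.75% of other names. They entered the comparison through the genotype in which they were detected, so no p is given. The bounds given here set the mean of the detected genotype against the lowest signal that the software called above background on the other arrays, or the probe's own value where that was higher. The reverse transcript chr3:78982395-79094345_R read -2.80 and -2.29 on the Myd88-KO arrays and -4.45 and -3.98 on the Wildtype arrays. Both Wildtype values lay above that lowest signal (-4.71 and -4.33), so its 3.17-fold is the measured difference and not a lower bound. The bound was 3.11-fold for chr8:19759348-19759959_R and 2.30-fold for chr13:97700327-97700876_F. These values hold for the main processing only. With normexp background correction the log2 differences of the 3 were smaller, at 0.57, 0.69 and 0.42 in the same order. In the other direction chr6:117827499-117851478_F was at least 2.80-fold higher on the Wildtype arrays than in Myd88-KO, and the bounds were 2.39-fold for chr15:59966962-59972812_R and 1.93-fold for chr5:14996031-15035334_F. Bounds on the Wildtype side reached down to 0.78-fold, and a bound below 1 gives no direction. Some of the 45 had a higher mean in Myd88-KO, for example by 0.20.

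Probes of 1 interval strand agreed only in part. All tested probes had the same sign in 845 of the 1508 interval transcripts with several (56.0%), and their differences ranged over a median of 0.38. The brightest probe and the mean of the further probes were weakly correlated across transcripts (Pearson's r = 0.25, n = 1508, all on the same 4 arrays). Of the 246 interval transcripts higher at an unadjusted p under 0.05 that had further tested probes, the mean of these was higher in 187 (76.0%), where 60.7% of all transcripts were. Their median difference was 0.23 against 0.57 for the brightest probe. Of 50 that were lower, the further probes were lower in 35 (70.0%). By contrast, probes of identical sequence under another name mostly agreed. In 32 such pairs detected on all arrays the median gap between the differences was 0.08, with 27 of the same sign, although the largest gap was 2.35. The other names in these pairs included annotated genes such as Timm17b and Crabp2, and the noncoding RNAs Dleu2, Pvt1 and Mir17hg.

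The intervals with the most tested probes show how far this goes. The forward strand of chr16:43623581-43642715 had all 10 probes tested, and the brightest read 4.05 and 4.26 on the Myd88-KO arrays and 3.98 and 4.25 on the Wildtype arrays. Its difference was 0.04 (SE 0.16, adjusted p = 0.924) with the other 9 between -0.10 and 0.14, and its sign turned in several settings. The probe of Zbtb20, a zinc finger repressor encoded 21424 bases away on the same strand, differed by 0.01. The forward strand of chr11:95627874-95640824, which holds a Zfp652 probe, read 3.40 and 3.36 against 3.34 and 3.32, with the 8 further probes between -0.19 and 0.36. In chr7:99879368-99889978 the brightest forward probe read 2.24 and 1.69 against 0.88 and 0.98, a difference of 1.04 (SE 0.22, adjusted p = 0.211) that its 5 further probes, at -0.47 to 0.10, did not share.

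The differences of interval transcripts were only weakly related to those of neighbouring annotated genes. An annotated probe lay within 10 kb on the same strand for 704 tested interval transcripts (24.9% of those with a position), and in 577 cases both were tested. The differences of the neighbours were weakly correlated (Pearson's r = 0.20, n = 577), with medians of 0.11 for the interval transcripts and 0.03 for the genes. On the opposite strand within 10 kb (384 with both tested) the correlation was 0.09. The share higher in Myd88-KO at an unadjusted p under 0.05 was 16.2% within 10 kb of a same-strand probe, 18.4% between 10 and 50 kb and 16.6% between 50 and 200 kb.

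Of 51 listed long noncoding RNA genes, 43 had a probe and 34 were tested. Of these, 24 had a higher mean in Myd88-KO (59.6% of all names did), with a median difference of 0.12, and 0 passed the adjusted threshold in limma. At an unadjusted p under 0.05, 2 were higher, Snhg3 (0.37) and Pvt1 (0.44), which is a smaller share than the background of 9.81%, and 0 were lower. The interval probe of chr15:62046023-62082530_F, which has the same sequence as the Pvt1 probe, differed by 0.20. Within 50 kb of a listed gene or of S100a8 lay 78 interval transcripts, 65 of them tested, with 48 higher and 17 lower and a median of 0.16. At an unadjusted p under 0.05, 12 (18.5%) were higher and 3 (4.62%) lower, close to the shares among all interval transcripts. Among the 78 were interval transcripts with a probe of the same sequence as the Dleu2, Mir17hg or Pvt1 probe. No interval probe lay within 50 kb of the probes of Myd88, Slpi, S100a9 or Ltf.

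The locus of Malat1 and Neat1, the latter the RNA scaffold of nuclear paraspeckles, held several interval transcripts. The forward transcript chr19:5771425-5848475_F, whose probe lies 2009 bases from the Neat1 probe on the opposite strand, read 6.63 and 6.50 on the Myd88-KO arrays and 5.75 and 5.87 on the Wildtype arrays. This difference of 0.75 (SE 0.11, adjusted p = 0.195) separated the genotypes, whereas Neat1 read 7.11 and 6.80 against 6.53 and 6.86 (0.26) and Malat1 0.41 and 0.22 against 0.47 and 0.43 (-0.13). The reverse transcript chr19:5798135-5800557_R, on the strand of Malat1, read 5.55 and 5.49 against 5.41 and 5.40, a difference of 0.11.

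Near Gas5, a host gene of small nucleolar RNAs, the reverse transcript chr1:162933979-162944379_R read 3.53 and 3.28 against 2.40 and 2.46 (difference 0.97, SE 0.13, adjusted p = 0.194), while the Zbtb37 probe 4474 bases away on its strand differed by -0.08. In the imprinted cluster of Meg3 and Mirg, chr12:110967974-110969051_F read -2.16 and -2.32 against -3.55 and -3.35 (1.21, adjusted p = 0.194), whereas the reverse transcript chr12:110944403-110988678_R read -3.81 and -3.21 against -1.91 and -2.05 (-1.53, adjusted p = 0.198). The probe of EU616813, which lies 519 bases from the former on the same strand and 1834 from the latter on the opposite strand, differed by -1.10, and the Mirg probe by 0.03. Near Terc, the RNA template of telomerase, chr3:96215885-96218756_R read 5.41 and 5.38 against 5.12 and 5.01 (0.33), and Terc differed by -0.40. Near Mir17hg, the host of the miR-17 cluster, chr14:115423660-115463160_F read 3.62 and 3.79 against 3.02 and 3.65, which overlapped (0.37, adjusted p = 0.531).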

How the data were processed

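Salivary gland RNA of 2 Myd88-KO and 2 Wildtype samples was measured on 1-colour Agilent arrays. The authors deposited the scanner output, in which the processed signal is an intensity already corrected for background by Agilent Feature Extraction, and the detection call of each spot. Control and flagged spots were left out, and the log2 of each processed signal was taken relative to the array's 75th percentile over non-control spots. A name was represented by its brightest probe among those well above background on both arrays of a genotype. The genotypes were compared with limma 3.58.1 (lmFit and eBayes, R 4.3.3), with Benjamini-Hochberg adjustment over all 22317 names and a threshold of 0.05. In that comparison, in the bins of base content and in the counts of the shared string, other names and probes include the X-chromosome intervals, which the detection counts leave out. The steps were tested on simulated data. Interval transcripts named in the text are the 8 with the strongest signal, the 8 largest increases and 8 largest decreases among those detected on all 4 arrays without overlap at an unadjusted p under 0.05, the 3 largest bounds each way, the 3 intervals with the most tested probes, the 3 with the strongest signal on both strands, and those within 50 kb of a listed gene; members on 1 chromosome were counted but not named. The members and lists were chosen with earlier results of these data known. Alternatives were other background corrections, scalings, filters, summaries of probes, moderation, the methods' t-test, a block and leaving out each array. The 4 columns of a processed series table could not be tied to samples and were not used. The number of arrays limits the precision. Probe positions are those of the scanner files (mm9), and no genome was used.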

Additional observations from a re-analysis of the deposited data

How the results depend on the processing

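With 2 arrays of each genotype, few calls were firm. Adjusted calls among interval transcripts numbered 6 with normexp, 27 with median scaling and 71 with trended and robust moderation, and 0 otherwise. Counts at an unadjusted p under 0.05 were 57 higher and 58 lower with median scaling, 309 and 46 with the methods' t-test, 402 and 150 with cyclic loess, and 697 and 210 among 5861 probes with every probe a feature. Without 1 array they ranged from 299 (without Wildtype 2) to 400 higher and from 56 (without Wildtype 1) to 164 (without Myd88-KO 2) lower. The median difference was 0.10 with cyclic loess and 0.13 to 0.25 without 1 array. Under 18 other settings 61.9% to 82.4% of interval transcripts were higher, each time a larger share than of other names. Detection on all 4 arrays fell from 2537 to 639 interval transcripts when every probe had to be detected. The cause of these changes was not tested.

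With the replicate number as a block, 316 interval transcripts were higher and 87 lower at an unadjusted p under 0.05. The labels do not say that arrays of equal number form a pair. The deviations of the first Myd88-KO and the first Wildtype array had a correlation of -0.37. With 2 arrays per genotype the crosswise pairing must then give 0.37, so these values cannot decide whether the numbers pair the arrays. Pairing the arrays crosswise, chosen after seeing the data, gave 590 and 132.

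Of 657 values of 39 named interval transcripts, 619 kept sign and side of the threshold, 21 newly passed it and 17 changed sign, in 6 transcripts. For chr19:5801802-5802597_R they were -0.0036 (quantile), and -0.01 to 0.30 without 1 array. For chr16:43623581-43642715_F they were -0.016 (normexp), -0.041 (quantile), -0.018 (percentile over detected probes), -0.013 (median scaling), -0.046 (cyclic loess) and -0.097 to 0.18 without 1 array (-0.068 without Myd88-KO 2). For chr11:95627874-95640824_F they were -0.025 (quantile), -0.010 (percentile over detected probes), -0.0048 (median scaling) and -0.036 (cyclic loess). With the mean of the probes, chr16:43623581-43642715_R was 0.080, chr7:99879368-99889978_R -0.13 and chr9:65376063-65390480_R 0.16, the last -0.28 to 0.072 without 1 array.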
